A study of Rattus norvegicus with 12 samples.

Results

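The glycine receptor and the scaffold of the inhibitory synapse were examined through 7 genes in the central nucleus of the amygdala (CeA) of alcohol-exposed rats. The genes were chosen by name. They are the receptor subunits *Glra1*, *Glra2*, *Glra3* and *Glrb*, the scaffold gene *Gphn*, the adhesion gene *Nlgn2* and the glycine transporter gene *Slc6a9*. All 7 were found among the 37209 genes listed in the count table, and all 7 passed the filter on low counts, with at least 168 counts in every rat. CeA punches came from 12 adult male wild type Sprague Dawley rats aged 14 to 16 weeks, with 1 poly-A RNA-Seq library per rat. The 6 rats of the CIE group (rats 1 to 6), labelled chronic intermittent alcohol, had inhaled ethanol vapor for part of each day over several weeks and were taken at the end of the last exposure, when still intoxicated. The 6 rats of the Control group (rats 7 to 12) had breathed air alone and were taken at the end of it. As the numbers run from the CIE group into the Control group, an effect of their order cannot be told apart from CIE. Vapor is given to the rat and not chosen by it, and the punch can hold tissue next to the CeA.

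Glycine receptors are chloride channels of the inhibitory synapse. Each is built from alpha subunits, which bind glycine, alone or with the beta subunit, which ties the channel to gephyrin (*Gphn*) under the membrane. Gephyrin also holds GABA-A receptors and, apart from the synapse, carries out the last steps of molybdenum cofactor synthesis. Neuroligin-2 (*Nlgn2*) is the adhesion protein that meets neurexins across the inhibitory cleft, and GlyT1 (*Slc6a9*), found mainly on glia, takes glycine back up. The alpha1 subunit prevails in spinal cord and brainstem, whereas alpha2 and alpha3 are known from the forebrain. Ethanol is known to enhance currents through these receptors.

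The sequences before the start sites of 4 of these genes are given: the alpha subunit genes *Glra2* and *Glra3*, which varied widely between rats, their partner *Glrb*, and *Gphn*, which varied least of the 7. They are the 250 bases upstream of the RefSeq start (assembly GRCr8), 5′ to 3′ on the strand of the gene. Capitals mark the GC box, spelled GGGCGG, on either strand, so that its complement is marked too. Capitals likewise mark the TATA word, spelled TATAAA, on either strand. A promoter entry was matched for 6 of the 7 genes.
Glra2, GRCr8 chrX:32651937-32652186, plus strand: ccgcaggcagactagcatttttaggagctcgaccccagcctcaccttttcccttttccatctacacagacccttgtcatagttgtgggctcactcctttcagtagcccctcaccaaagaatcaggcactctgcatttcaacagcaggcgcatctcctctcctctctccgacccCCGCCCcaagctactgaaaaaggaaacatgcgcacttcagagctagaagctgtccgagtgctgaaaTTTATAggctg
Glra3, GRCr8 chr16:39857007-39857256, minus strand: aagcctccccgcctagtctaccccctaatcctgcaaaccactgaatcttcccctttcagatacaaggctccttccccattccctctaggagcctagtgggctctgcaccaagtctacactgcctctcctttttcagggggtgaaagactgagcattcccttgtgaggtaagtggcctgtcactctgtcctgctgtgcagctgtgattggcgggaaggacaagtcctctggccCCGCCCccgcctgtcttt
Glrb, GRCr8 chr2:168505615-168505864, minus strand: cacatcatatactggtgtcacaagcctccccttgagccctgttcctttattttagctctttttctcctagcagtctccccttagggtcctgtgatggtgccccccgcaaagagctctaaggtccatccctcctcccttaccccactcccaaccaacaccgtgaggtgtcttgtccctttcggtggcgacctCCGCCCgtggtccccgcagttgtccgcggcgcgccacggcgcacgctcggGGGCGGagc
Gphn, GRCr8 chr6:102687403-102687652, plus strand: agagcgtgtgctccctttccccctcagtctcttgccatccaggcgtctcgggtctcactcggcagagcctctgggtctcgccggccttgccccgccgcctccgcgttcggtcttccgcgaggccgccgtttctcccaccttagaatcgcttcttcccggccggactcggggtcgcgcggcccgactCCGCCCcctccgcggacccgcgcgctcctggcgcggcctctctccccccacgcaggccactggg
All 4 windows held a GC box, which 30.5% of 33469 windows of this length hold. The TATA word was found in *Glra2* alone of these 4, against 12.9% of all windows. CpG dinucleotides numbered 7 in *Glra2*, 4 in *Glra3*, 16 in *Glrb* and 32 in *Gphn*, with a median of 5 over all windows. A match of letters is not a measured binding site, and no binding or methylation was measured here.

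Total counts lay between 39082548 and 95647601 per rat. Expression is given as CPM, counts scaled to the size of each library, after TMM scaling, which evens out their composition. Genes of unequal length were not compared in level. All 12 listed markers of CeA neurons were tested, with a summed level of 591 to 1920 CPM in the CIE rats and 724 to 2387 CPM in the Control rats. *Penk* had the highest mean of them, at 270 to 1267 CPM and 267 to 1658 CPM. *Crh* was at 3.76 to 7.58 CPM and 6.27 to 9.86 CPM. The sum does not show how much of a punch was CeA. Of the 12, 3 were lower and 0 higher in the CIE rats at a nominal p below 0.05 in edgeR (8.31% of all genes passed). The rats differed in tissue next to the CeA. A score for striatal projection neurons (mean log2 CPM of 9 markers, centred on each gene's mean) was 2.15 in CIE rat 2, 1.07 in CIE rat 4 and 2.28 in Control rat 10, and at most 0.09 in the other rats. The score of 10 cortical glutamatergic markers was between -1.21 and 1.84 in the CIE rats and between -1.40 and 0.71 in the Control rats. Its mean was 0.46 in the CIE rats against -0.46 in Control rats. Of the 10 markers, 9 were higher in the CIE rats, with a median log2 fold change of 1.04 over the list. At a nominal p below 0.05 in edgeR 2 of the 10 passed, both higher. The score of 10 myelinating oligodendrocyte markers had a mean of -0.30 in the CIE rats against 0.30 in Control rats. In punched tissue, fewer cells of a type and less RNA per cell cannot be told apart.

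None of the 7 genes passed the test between CIE and Control rats. In edgeR's quasi-likelihood F test, 0 of 7 passed 5% FDR, where 0.363% of the 20944 genes tested passed. At a nominal p below 0.05 the count was again 0 of 7, where 8.31% of all genes passed. DESeq2 placed 0 of 7 below 5% FDR, where 0.932% of 29389 genes passed. That share is over genes not filtered on low counts beforehand, so it is not on the same base as the others. Limma-voom with sample quality weights placed 0 of 7 there (1.12% of the 20944 genes). The values of the CIE and Control rats overlapped in all 7 genes, and 0.893% of all genes showed no overlap. Of the 7 log2 fold changes, 6 were below 0, with a median of -0.08. Over all genes 49.7% were below 0, with a median of 0.00096.

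**Figure D1:**
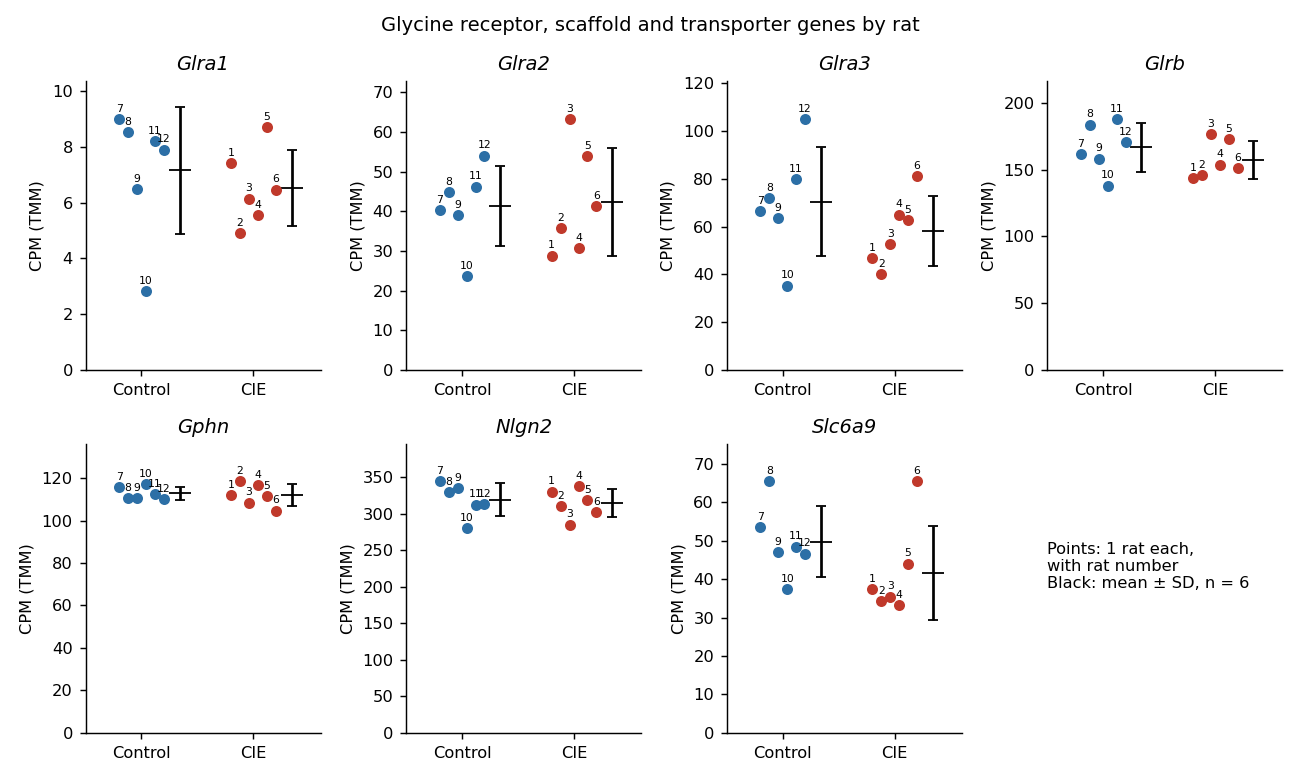
CPM of the 7 genes on the vertical axes (each from 0) in the Control rats (blue) and CIE rats (red), 1 numbered point per rat, with the mean ± SD of 6 rats in black. The groups overlap in every panel, and *Gphn* stays between 105 and 118 CPM while *Glra1* runs from 2.83 to 9.0 CPM.

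*Glra1*, the alpha subunit of spinal and brainstem receptors, was read from 168 to 819 counts per rat. It had a lowest, median and highest value of 4.90, 6.30 and 8.71 CPM in the CIE rats and of 2.83, 8.04 and 9.0 CPM in the Control rats. Control rat 10 was the lowest of all, and 5 of 6 CIE rats lay below the Control median. The means were 6.53 ± 1.36 CPM (SD, n = 6) in the CIE rats against 7.15 ± 2.28 CPM (SD, n = 6) in Control rats. In edgeR the log2 fold change, CIE minus Control, was -0.13 (SE 0.23, 95% confidence interval -0.63 to 0.36, FDR 0.923). With 1 rat left out in turn it stayed between -0.29 (without Control rat 10) and -0.06 (without Control rat 7), but with cortical and striatal scores as covariates it was 0.17 (FDR 0.816).

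*Glra2*, the alpha subunit of the developing and adult forebrain, had a lowest, median and highest value of 28.9, 38.6 and 63.3 CPM in the CIE rats and of 23.8, 42.5 and 54.0 CPM in the Control rats. CIE rat 3 was above every Control rat, and Control rat 10 was below every other rat. The means were 42.3 ± 13.7 CPM (SD, n = 6) and 41.4 ± 10.1 CPM (SD, n = 6). The log2 fold change in edgeR was 0.03 (SE 0.21, interval -0.42 to 0.48, FDR 0.979). Its sign rested on single rats and on the model. It was -0.12 without CIE rat 3, -0.05 without CIE rat 5 and -0.08 without Control rat 10. It was -0.21 with limma-voom and -0.20 with the oligodendrocyte score as a covariate, and 0.29 with the cortical and striatal scores (SE 0.13, nominal p 0.0518 in edgeR, FDR 0.557).

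*Glra3*, the alpha subunit studied in pain and reward circuits, had the lowest log2 fold change of the 7. It had a lowest, median and highest value of 40.2, 57.6 and 81.2 CPM in the CIE rats and of 35.3, 69.1 and 105 CPM in the Control rats. Control rats 10 and 12 were the lowest and the highest of all, so that the Control group enclosed the CIE group. The means were 58.1 ± 14.7 CPM (SD, n = 6) and 70.3 ± 22.8 CPM (SD, n = 6), a difference of -0.28 on the log2 scale (SE 0.22, interval -0.74 to 0.19, edgeR FDR 0.801). Without Control rat 10 it was -0.41 (nominal p 0.0361 in edgeR, FDR 0.400), and without Control rat 12 it was -0.13. It was below 0 in all 21 other fits.

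*Glrb*, the subunit that anchors the receptor, was steadier than the alpha subunits. Its lowest, median and highest values were 143, 152 and 176 CPM in the CIE rats and 138, 166 and 188 CPM in the Control rats. CIE rats lay within the Control range throughout. The means were 157 ± 14.0 CPM (SD, n = 6) and 167 ± 18.3 CPM (SD, n = 6). The log2 fold change was -0.08 (SE 0.08, interval -0.26 to 0.09, edgeR FDR 0.846), and with cortical and striatal scores as covariates it was 0.01. It was -0.13 without Control rat 10, -0.047 without Control rat 8 and -0.048 without Control rat 11.

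*Gphn*, the scaffold itself, varied little between rats. The lowest, median and highest values were 105, 112 and 118 CPM in the CIE rats and 110, 111 and 117 CPM in the Control rats. CIE rats 3 and 6 lay below every Control rat and CIE rat 2 above, so that the CIE group enclosed the Control group. The means were 112 ± 5.12 CPM (SD, n = 6) and 113 ± 3.04 CPM (SD, n = 6). The log2 fold change was -0.01 (SE 0.05), and its 95% confidence interval of -0.12 to 0.10 was the narrowest of the 7 (edgeR FDR 0.972). Its sign changed in 4 of 21 other fits, library size only among them (0.0048).

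*Nlgn2*, the synaptic adhesion gene, was also steady between rats. Its lowest, median and highest values were 285, 314 and 338 CPM in the CIE rats and 280, 321 and 344 CPM in the Control rats, with CIE rats inside the Control range. The means were 314 ± 19.3 CPM (SD, n = 6) and 319 ± 22.7 CPM (SD, n = 6). The log2 fold change was -0.02 (SE 0.06, interval -0.16 to 0.11, edgeR FDR 0.953).

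*Slc6a9*, the glycine transporter gene, had the smallest p value of the 7, at rank 4137 of all genes tested. Its lowest, median and highest values were 33.2, 36.4 and 65.4 CPM in the CIE rats and 37.5, 47.7 and 65.4 CPM in the Control rats. CIE rats 1, 2, 3 and 4, at 33.2 to 37.4 CPM, lay below every Control rat, whereas CIE rat 6 was level with Control rat 8 at the top. The means were 41.6 ± 12.3 CPM (SD, n = 6) and 49.7 ± 9.24 CPM (SD, n = 6), a difference of -0.26 on the log2 scale (SE 0.17, interval -0.62 to 0.10, nominal p 0.148 in edgeR, FDR 0.748). The size of this value moved with single libraries, but it stayed below 0 with any 1 rat left out. Without Control rat 8 it was -0.15 (FDR 0.948 in edgeR). Without CIE rat 6 it was -0.43 (SE 0.12, nominal p 0.00425 in edgeR, FDR 0.196), which still missed 5% FDR. With limma-voom, which gives discordant samples less weight, it was -0.38 (nominal p 0.0128, FDR 0.179). CIE rat 6 and Control rat 8 also had the highest oligodendrocyte score of their group, 0.41 and 0.65, and the highest microglia score, 0.19 and 0.18. CIE rat 6 was also the highest CIE rat in the astrocyte score (0.24) and the endothelial score (0.08), and the lowest in the scores of neurons (-0.19) and CeA neurons (-0.70). With the oligodendrocyte score as a covariate the log2 fold change of *Slc6a9* was 0.05 (FDR 0.939). All 10 markers of that score were detected, with a summed level of 5718 to 13866 CPM in the CIE rats and 8759 to 16399 CPM in the Control rats, and 9 of 10 were lower under CIE at a nominal p below 0.05 in edgeR (median log2 fold change -0.58). Its part in the *Slc6a9* values was not tested further.

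**Figure D2:**
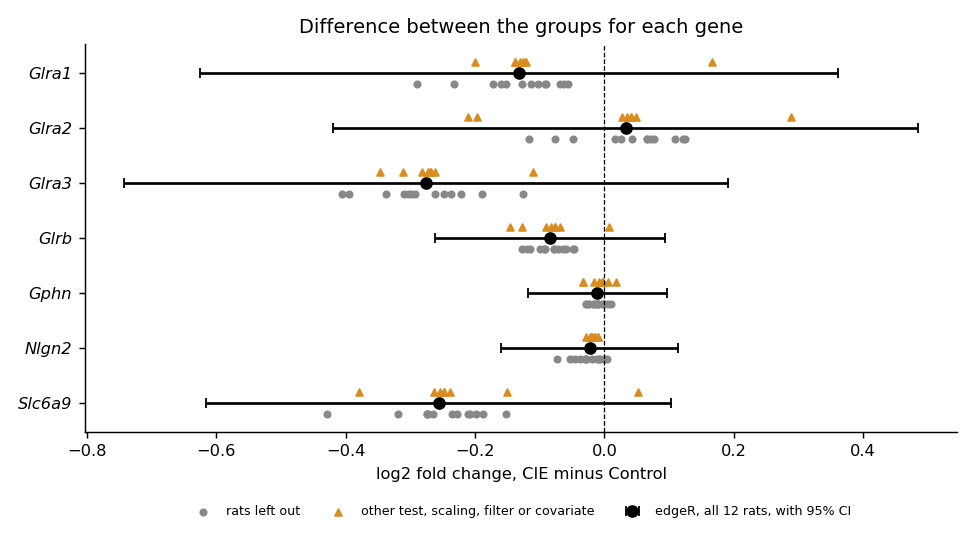
Log2 fold change (CIE minus Control, horizontal axis) of the 7 genes in edgeR with its 95% confidence interval (black), in fits with rats left out (grey points) and under another test, scaling, filter or covariate (orange triangles). Every interval includes 0, the widest being those of the 3 alpha subunits and the narrowest that of *Gphn*.

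The genes differed most in how much they varied between rats of a group. The SD of log2 CPM within groups was 0.49 for *Glra1*, 0.45 for *Glra3* and 0.43 for *Glra2*, a spread larger than that of 96.4%, 95.5% and 94.9% of the 13295 genes with a mean of at least 5 CPM. For *Slc6a9* it was 0.32, above 88.6% of these genes. It was 0.15 for *Glrb*, 0.10 for *Nlgn2* and 0.05 for *Gphn*, above 40.8%, 14.6% and 0.888% of these genes. The alpha subunits were thus among the most variable genes and gephyrin among the least variable ones, in the same libraries. A high share in this ranking also raises the difference needed to pass the test.

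**Figure D3:**
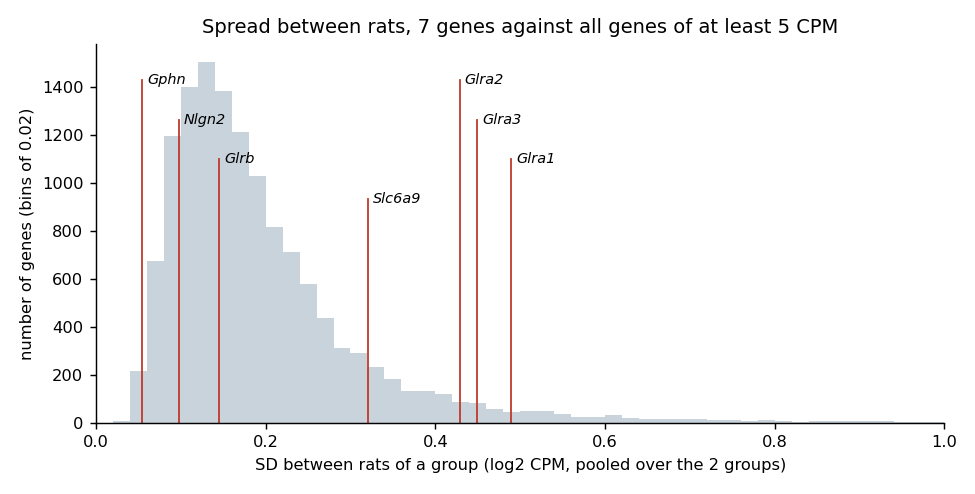
SD between rats of a group in log2 CPM (horizontal axis), with the number of genes per bin of 0.02 for all genes of at least 5 CPM (grey bars) and the 7 genes as red lines. *Gphn* at 0.05 lies at the left edge of the distribution, and *Glra1*, *Glra2* and *Glra3* at 0.43 to 0.49 lie in its right tail.

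Control rat 10 stood low in several receptor genes. This rat, which had the highest striatal score (2.28), had the lowest value of *Glra1*, *Glra2*, *Glra3*, *Glrb* and *Nlgn2* among all 12 rats. CIE rat 2, with a striatal score of 2.15, had the lowest CIE value of *Glra1* (4.90 CPM) and *Glra3* (40.2 CPM). Its *Glra2* (35.8 CPM) and *Glrb* (146 CPM) were not the lowest CIE values but lay below the CIE median. CIE rat 4, with a striatal score of 1.07, was below the CIE median in *Glra1* (5.55 CPM) and *Glra2* (30.7 CPM). In *Glra3* (64.9 CPM) and *Glrb* (154 CPM) CIE rat 4 lay above the CIE median but below the Control median. It had the highest CIE value of *Nlgn2* (338 CPM). The cortical score was highest in CIE rats 1, 4 and 2 and Control rat 10 (1.84, 1.37, 1.18 and 0.71). These rats had the lowest *Glra2* of all (28.9, 30.7, 35.8 and 23.8 CPM). Control rat 12, next in that score (0.61), had the highest *Glra2* of its group (54.0 CPM). The highest *Gphn* of each group was found in CIE rat 2 (118 CPM) and Control rat 10 (117 CPM). With cortical and striatal scores as covariates in edgeR, the SE of the log2 fold change fell from 0.23 to 0.15 for *Glra1*, from 0.21 to 0.13 for *Glra2* and from 0.22 to 0.16 for *Glra3*. It also fell for *Glrb* (0.083 to 0.064) and *Slc6a9* (0.17 to 0.15). For *Gphn* it hardly moved (0.050 to 0.049), and for *Nlgn2* it rose (0.064 to 0.068). In that fit 0 of 7 genes passed 5% FDR, where 0.263% of all genes passed. Without the 3 rats of highest striatal score, an alternative chosen after the values were seen, 0 of 7 genes passed a nominal p below 0.05, where 6.62% of the 21365 genes tested passed. The part of neighboring tissue in these levels was not tested beyond these fits.

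**Figure D4:**
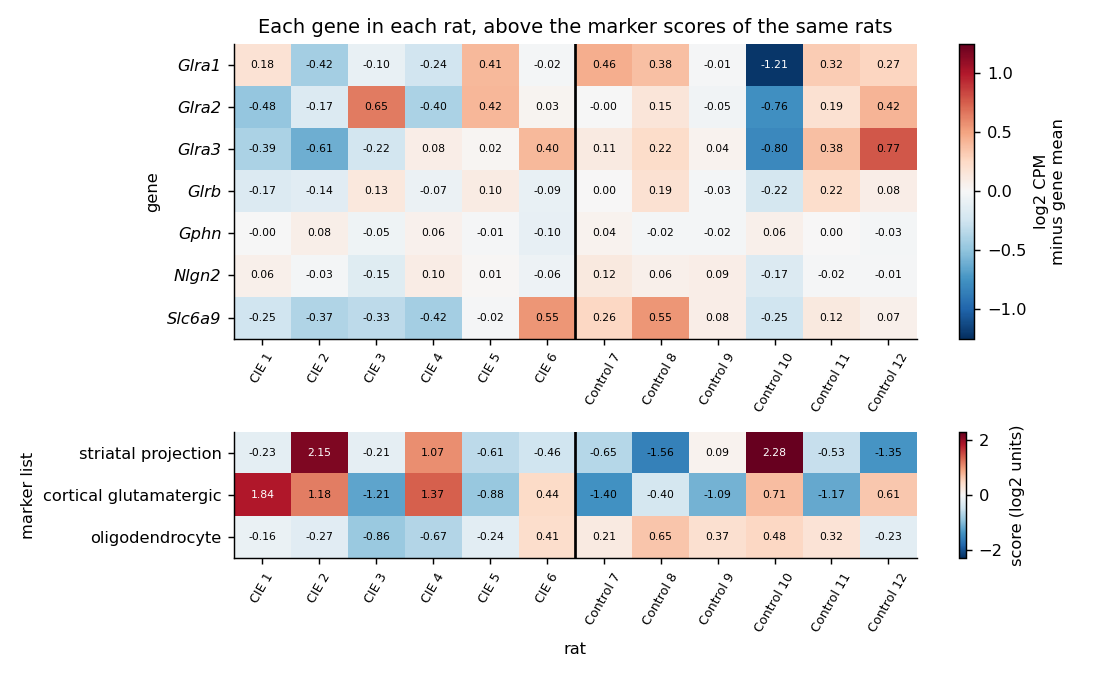
Log2 CPM of each gene minus its mean over the 12 rats (upper block), above 3 marker scores of the same rats (lower block, log2 units), with rats in columns, the CIE rats left of the line and a color scale from blue (low) to red (high). Control rat 10 is the darkest blue column for *Glra1*, *Glra2* and *Glra3* and has the highest striatal score, 2.28.

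Among the 21 pairs of these genes, 15 correlated positively over the 12 rats. The pair of *Glra2* and *Glrb* had Pearson's r = 0.82 (permutation p = 0.0014, Benjamini-Hochberg adjusted over the 21 pairs 0.0294) and Spearman's rho = 0.83 (permutation p = 0.00138, adjusted 0.029). It was 0.91 within the CIE group and 0.85 within the Control group, and 0.75 without Control rat 10 and CIE rat 3, the rats farthest from the median of *Glra2*. No other pair passed after adjustment, although 10 pairs passed at an unadjusted permutation p below 0.05. The correlation of *Glra1* with *Glra3* had r = 0.70 (permutation p = 0.0092, adjusted 0.0644) and rho = 0.52 (permutation p = 0.0892, adjusted 0.187). Its r was 0.32 within the CIE group and 0.86 within the Control group. Without Control rat 10 and CIE rat 2, the rats farthest from the median of *Glra1*, r was 0.23. Leaving out such rats narrows the range of *Glra1* and can by itself lower r. Without the 3 rats of highest striatal score, 0 of 21 pairs passed after adjustment, and r for *Glra2* and *Glrb* was 0.72 (exact permutation p = 0.0278, adjusted 0.292). All genes of a rat share its library and scaling. With library size only, 5 pairs passed.

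Within-rat ratios of counts do not move with scaling, and 6 were compared. The count of *Glra2* per count of *Glra3* was 0.615, 0.891, 1.20, 0.472, 0.862 and 0.509 in CIE rats 1 to 6. It was 0.607, 0.623, 0.616, 0.674, 0.579 and 0.515 in Control rats 7 to 12. CIE rat 1 lay within the Control range, CIE rats 4 and 6 lay below it, and CIE rats 2, 3 and 5 lay above it. The mean ratios were 0.759 ± 0.279 (SD, n = 6) and 0.602 ± 0.0529 (SD, n = 6), and the log2 difference of 0.26 did not pass (exact permutation test, two-sided, p = 0.266, adjusted over the 6 ratios 0.867). It was 0.11 without CIE rat 3 and 0.38 without CIE rat 4. The unequal spread itself was not tested. *Glra3* per *Glrb* was 0.371 ± 0.0969 in the CIE rats against 0.417 ± 0.115 in Control rats (exact permutation p = 0.472, adjusted 0.867). *Glra2* per *Glrb* was 0.265 ± 0.0630 and 0.246 ± 0.0458 (exact permutation p = 0.578, adjusted 0.867). *Glra1* per *Glrb* was 0.0416 ± 0.0080 and 0.0423 ± 0.0117 (exact permutation p = 0.957, adjusted 0.957). *Gphn* per *Glrb* was 0.718 ± 0.0788 and 0.685 ± 0.0943 (exact permutation p = 0.502, adjusted 0.867), and *Nlgn2* per *Gphn* was 2.81 ± 0.145 and 2.83 ± 0.237 (exact permutation p = 0.885, adjusted 0.957). An exact test of 6 rats against 6 can reach p = 0.00216 at the lowest.

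The partners of these proteins were read from 5 lists in the same edgeR fit. None of their genes passed 5% FDR, and at a nominal p below 0.05 the background over all genes was 8.31%, and 4.31% of all genes were lower in the CIE rats. Of 6 GABA-A receptor subunits that share the gephyrin scaffold, 0 passed the nominal threshold, and the median log2 fold change was 0.01.

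Of 28 scaffold and adhesion partners, 27 were tested and 3 passed the nominal threshold, 1 higher and 2 lower in the CIE group, with a median log2 fold change of -0.06. *Magi2*, a scaffold protein that binds neuroligin-2, had a mean of 173 ± 27.7 CPM (SD, n = 6) in CIE rats against 149 ± 5.53 CPM (SD, n = 6) in Control rats, a difference of 0.22 on the log2 scale (SE 0.09, nominal p 0.0376 in edgeR, FDR 0.566). In this gene 4 CIE rats lay above every Control rat and 1 below. *Gabarap*, which takes part in the traffic of GABA-A receptors, was at 66.1 ± 7.43 and 77.5 ± 8.05 CPM (log2 fold change -0.23, nominal p 0.0202 in edgeR, FDR 0.476). *Pfn1*, an actin-binding protein that also binds gephyrin, was at 75.2 ± 8.43 and 84.3 ± 5.75 CPM (log2 fold change -0.17, nominal p 0.0482 in edgeR, FDR 0.595).

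Of 7 genes for glycine transport and packing, 2 passed the nominal threshold and were lower in the CIE group, and the median log2 fold change was -0.16. *Slc38a3*, an amino acid transporter of astrocytes, had a mean of 51.3 ± 5.78 CPM (SD, n = 6) in CIE rats against 59.3 ± 5.68 CPM (SD, n = 6) in Control rats (log2 fold change -0.21, SE 0.08, nominal p 0.0268 in edgeR, FDR 0.517). *Slc6a20*, a transporter of proline and glycine, was at 8.33 ± 1.57 and 10.5 ± 1.75 CPM (log2 fold change -0.33, SE 0.14, nominal p 0.0365 in edgeR, FDR 0.566). Of 10 genes for glycine synthesis and cleavage 0 passed, with a median of -0.03. *Gldc*, which codes for the decarboxylase of the glycine cleavage system, had the smallest p of them, at 20.1 ± 2.56 and 16.6 ± 4.29 CPM (log2 fold change 0.27, nominal p 0.0937 in edgeR).

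Of 10 genes for the molybdenum cofactor and the enzymes that use it, 2 passed the nominal threshold, 1 in each direction, with a median of 0.09. *Xdh*, xanthine dehydrogenase, had a mean of 9.01 ± 1.22 CPM (SD, n = 6) in CIE rats against 5.83 ± 1.44 CPM (SD, n = 6) in Control rats. The difference on the log2 scale was 0.62 (SE 0.16, nominal p 0.00184 in edgeR, FDR 0.169), and 5 of 6 CIE rats lay above every Control rat. *Mocs3*, which activates the sulfur carrier of cofactor synthesis, was at 10.4 ± 1.53 and 12.3 ± 1.20 CPM (log2 fold change -0.24, nominal p 0.0343 in edgeR, FDR 0.554).

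**Figure D5:**
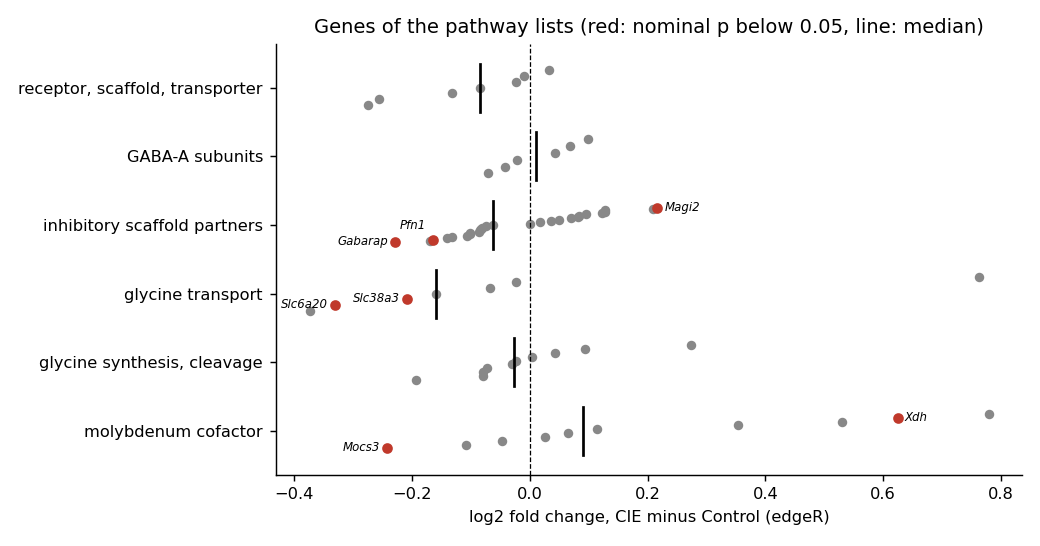
Log2 fold change (CIE minus Control, horizontal axis) of the 7 genes and of each tested gene of 5 pathway lists, 1 point per gene, red where the nominal p in edgeR was below 0.05, with the list median as a black line. The named points are the 7 list genes that passed the nominal threshold, *Xdh* at 0.62 being the highest of them.

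For each gene, the 2 genes whose log2 CPM followed it most closely over the 12 rats were taken from all genes tested. They were picked for their correlation, so that the coefficients describe these rats and have no p. *Glra2* was followed by the calcitonin receptor gene *Calcr* (r = 0.97, rho = 0.97) and by *Brinp3* (r = 0.97, rho = 0.97). *Calcr* ranged from 7.53 to 40.9 CPM over the rats. *Glrb* was followed by *Rnf11*, a ubiquitin ligase gene (r = 0.97, rho = 0.96), and by *Syngr3*, a synaptic vesicle gene (r = 0.96, rho = 0.94). *Glra3* was followed by *Erlin2* (r = 0.93, rho = 0.92) and *Bcl2l15* (r = 0.93, rho = 0.96), and *Glra1* by LOC103690050 (r = 0.98, rho = 0.95) and LOC100910646 (r = 0.97, rho = 0.91). *Gphn* was followed by *Eftud2*, a spliceosome gene (r = 0.91, rho = 0.89), and by *Chrnb2*, a nicotinic receptor subunit gene (r = 0.90, rho = 0.86). *Nlgn2* was followed by LOC103691728 (r = 0.92, rho = 0.82), which was near the detection limit, and by *Thsd7b* (r = 0.91, rho = 0.87). *Slc6a9* was followed by *Fermt2*, the kindlin-2 gene (r = 0.96, rho = 0.99), and by the semaphorin gene *Sema6a* (r = 0.96, rho = 0.96). Of these 14 genes *Sema6a* alone had a nominal p below 0.05 in edgeR (log2 fold change -0.33, nominal p 0.0250, FDR 0.509).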

How the data were processed

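CeA punches of 12 rats were profiled by poly-A RNA-Seq. Alignment to the Rnor_6.0 genome was done by the authors with BWA, and the deposited file holds their HTSeq gene counts, not normalized. The annotation, strand and overlap settings are not given in the sources used here, so reads of overlapping genes cannot be told apart. Blank rows of the table were dropped. Gene lists were matched by symbol (146 of 153 genes) or RefSeq synonym (7). Nothing shows more than 1 library per rat. Within each group, the median squared difference between any 2 rats, scaled to sampling noise, was 8.13 to 34.9 times that of noise alone.

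Counts were compared with edgeR 4.0.16 in R 4.3.3 by its two-sided quasi-likelihood F test (CIE against Control), with TMM scaling, filterByExpr and no covariates. FDR is the Benjamini-Hochberg adjusted p over 20944 genes, and SE is the log2 fold change over the square root of F. DESeq2 1.42.0 (the package the authors used) and limma 3.58.1 were alternatives. In all 20 alternative fits were set at the start, and 1 was added after the values were seen. Log2 CPM used a prior count of 2, and ratios an added count of 0.5. Correlations were tested with 100000 permutations, or all of them below 10 rats. The fits were also run on simulated counts, with larger changes than those of the 7 genes, the same dispersion for every gene and no tissue differences between rats. That run does not show how small a change the fits would miss here. Named genes are the 7 genes, up to 3 genes of each pathway list at a nominal p below 0.05 (or the one with the smallest p), and the 2 genes most correlated with each. One gene that this rule names is not reported here. Genes and lists were chosen with earlier results of these data known. The marker lists were chosen in the same way and served as scores, sums of CPM and counts of genes past the test.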

Additional observations from a re-analysis of the deposited data

Results flagged for a closer look

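In 48 sets of 6 rats (24 genes or ratios in each group), single rats stood apart from the others of their group in 4. The rule flags about 1 set in 20 by chance. *Slc6a5* was put among the sets after its values were seen, so the 4 cannot be compared with that rate. *Slc6a9* was at 65.4 CPM in CIE rat 6, with the other CIE rats between 33.2 and 44.0 CPM. *Pfn1* was at 91.6 CPM in CIE rat 3, with the other CIE rats between 68.9 and 76.1 CPM. *Slc6a5*, the gene of the neuronal glycine transporter GlyT2, was at 14.4 CPM (931 counts) in CIE rat 3, with the other CIE rats between 1.17 and 3.42 CPM. It was at 5.54 CPM (414 counts) in Control rat 12, with the other Control rats between 1.14 and 2.09 CPM. CIE rat 3 and Control rat 12 were also the rats with the highest *Glra2* of their group, at 63.3 and 54.0 CPM. *Slc6a5* was singled out after its values were seen.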

How the results depend on the processing

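In none of the 21 alternative fits did any of the 7 genes pass 5% FDR, the lowest FDR being 0.179 (*Slc6a9*, limma-voom). At a nominal p below 0.05 the count of 7 was 1 with limma-voom, where 3596 of 20944 genes passed. With 1 rat left out it was between 0 and 1. It was 1 without CIE rat 6 (*Slc6a9*), where 1954 of 21093 genes passed, and without Control rat 10 (*Glra3*), where 2420 of 21213 passed. Signs changed with limma-voom (*Glra2* -0.21, *Gphn* 0.0173), library size only (*Gphn* 0.0048), the cortical and striatal scores (*Glra1* 0.17, *Glrb* 0.0070) and the oligodendrocyte score (*Glra2* -0.20, *Slc6a9* 0.052). The cause was not tested. With 1 rat left out, the log2 fold change lay between -0.12 and 0.12 for *Glra2*, -0.028 and 0.0094 for *Gphn*, -0.053 and 0.0040 for *Nlgn2*, -0.13 and -0.047 for *Glrb*, and -0.43 and -0.15 for *Slc6a9*. The ratio differences (log2) lay between -0.18 and 0.11 for *Glra1* per *Glrb*, -0.00057 and 0.18 for *Glra2* per *Glrb*, -0.059 and 0.010 for *Nlgn2* per *Gphn*, -0.29 and -0.038 for *Glra3* per *Glrb*, 0.11 and 0.38 for *Glra2* per *Glra3*, and 0.033 and 0.13 for *Gphn* per *Glrb*. Without the 3 rats of highest striatal score *Glra1* per *Glrb* was at -0.062. *Glra3* kept its sign in all fits.

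Over all genes, 76 passed 5% FDR, and 274 did with DESeq2, 234 with limma-voom, 26 with the oligodendrocyte score as a covariate, 34 without the 3 rats of highest striatal score, and 34 (without Control rat 9) to 154 (without CIE rat 6) with 1 rat left out. At a nominal p below 0.05, 1740 passed, and 3596 with limma-voom and 1347 to 2811 with 1 rat left out. Of these, 48.1% were higher in the CIE group with TMM and 60.3% with library size only. The count of correlated pairs, 1 of 21, was 5 with library size only and 0 without the 3 rats, which left 9. There 3 pairs passed at an unadjusted exact permutation p below 0.05. The 95% confidence intervals of the alpha subunits reach down to -0.74 (*Glra3*) and up to 0.48 (*Glra2*).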

Other observations

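*Glra4*, a further alpha subunit gene outside the 7, was counted at 114 to 299 counts per rat. Its mean level was 2.97 ± 0.768 CPM (SD, n = 6) in CIE rats against 3.09 ± 0.686 CPM (SD, n = 6) in Control rats, a difference of -0.05 on the log2 scale (SE 0.19, edgeR FDR 0.964). *Slc32a1*, the vesicular transporter that packs both GABA and glycine, was at 427 ± 63.4 CPM in the CIE rats against 477 ± 30.4 CPM in Control rats, a difference of -0.16 on the log2 scale (SE 0.09, nominal p 0.103 in edgeR, FDR 0.701). *Slc6a5* differed by 0.76 on the log2 scale (SE 0.60, edgeR FDR 0.801), a sign that rests on CIE rat 3. Without that rat, an alternative chosen after the values were seen and not tested, its mean was 1.95 ± 0.870 CPM (SD, n = 5) in the CIE rats and 2.36 ± 1.59 CPM (SD, n = 6) in the Control rats. These 3 genes were named after their values were seen.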
